A study of Homo sapiens with 15 samples.

Results

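The interleukin-1 (IL-1) family genes described here are 10 of the 57736 genes of a count table of IMR90, a fibroblast line derived from human fetal lung. They were chosen by name, as the rows whose Ensembl identifier maps to the ligands IL1A, IL1B, IL33 and IL18, the receptor antagonist IL1RN, the receptor chains IL1R1, IL1RL1 and IL1RAP, and the receptor-associated kinase family members IRAK2 and IRAK3. Of the 10 genes, 6 had enough counts to be tested (IL1A, IL1B, IL1R1, IL1RAP, IRAK2 and IRAK3), and 4 did not (IL1RN, IL33, IL18 and IL1RL1). The latter are described by their counts.

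IL-1α and IL-1β, the products of IL1A and IL1B, both signal through the receptor IL1R1, which needs the co-receptor chain encoded by IL1RAP. The bound receptor recruits the adaptor MYD88 and kinases of the IRAK family, and the signal passes through TRAF6 and TAK1 to NF-κB and MAP kinases, which switch on genes for chemokines, IL-6, prostaglandin synthesis and further IL-1. In fibroblasts made senescent by an oncogene, IL-1α on the cell surface is known as an upstream inducer of the secreted inflammatory factors called the senescence-associated secretory phenotype. IL1RN encodes a secreted protein that occupies IL1R1 without signalling, and IRAK3 lacks kinase activity of the usual kind and is known as a brake on the pathway.

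The study asked how METTL14, a subunit of the enzyme complex that places m6A marks on RNA, bears on that secretory phenotype. Each of 5 groups held 3 libraries. Control cells received the empty retrovirus and the non-targeting siControl, and siControl RAS cells received a RAS retrovirus and the same siRNA. Knockdown RAS cells received the RAS retrovirus, siMETTL14 and an empty vector. The wild-type add-back and the R298P add-back were knockdown RAS cells that instead received a lentivirus encoding wild-type METTL14 or its R298P mutant. All groups shared the IMR90 background and siRNA transfection, first on day 4 after the retrovirus, again on the next day, with RNA taken 48 hours later. The sources used here do not say whether siControl RAS cells carried an empty lentivirus, so knockdown and such a difference cannot be told apart in that comparison. Replicates are not stated to be separate cultures, and the spread behind each p-value may therefore be technical.

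Total counts per library ran from 4917661 to 7763084, and 1 count was worth 0.129 to 0.203 CPM, the count scaled to library size. METTL14 was measured at 26.2, 19.3 and 20.5 CPM in siControl RAS, at 9.35, 4.94 and 3.94 CPM in knockdown RAS, and at 545 ± 32.0 and 945 ± 80.4 CPM (SD, n = 3) in the wild-type and R298P add-backs. METTL14 levels therefore followed the knockdown and add-back labels, and the R298P add-back held more METTL14 RNA than the wild-type one (log2 difference 0.79, adjusted p = 0.0322). Control, at a mean of 21.2 CPM, was not separated from siControl RAS by METTL14. Gene counts do not tell wild-type from R298P RNA. Tags of endogenous and lentiviral METTL14 are not separated in these counts. The 12 fibroblast markers all passed the expression filter, with summed levels of 10700 to 10900 CPM in control and 22400 to 23400 CPM in siControl RAS. Of 16 leukocyte markers, 9 were at 0 in every library (among them LYZ, ITGAM and CD3E), PTPRC never exceeded 2 counts, and CD68 reached 23.2 CPM. CDH5 and ERG of 7 endothelial markers and CDH1, KRT5 and KRT14 of 10 epithelial markers were also at 0 throughout. The other markers of these lists were present and moved with the groups: the endothelial list summed to 14.4 to 24.3 CPM in control, 31.7 to 36.7 in siControl RAS and 39.7 to 43.5 after knockdown, mostly from TEK (up to 38.8 CPM). The epithelial list, of which 7 were tested, summed to 138 to 151 CPM in control, 52.6 to 70.2 in siControl RAS and 84.7 to 95.9 after knockdown, with KRT18 and KRT19 reaching 59.6 and 58.6 CPM. Summed leukocyte markers were at 3.29 to 8.6 CPM in control, 14.7 to 25.1 in siControl RAS and 6.79 to 14.6 in knockdown RAS. They were at 11.4 to 16 CPM in the wild-type add-back and 11.6 to 12.9 CPM in the R298P add-back. Most of the sum was CD68, as CD14, the next highest, reached 2.63 CPM. Only 1 leukocyte marker was tested, and it was called higher after RAS (log2 1.96) but not called after knockdown (log2 -0.784). Against knockdown its log2 change was 0.00176 with wild type and -0.131 with R298P, neither called. The 12 proliferation markers summed to 1960 to 2100 CPM in control, 172 to 177 in siControl RAS and 295 to 306 in knockdown RAS. The part of any of these lists in the results below was not tested. In bulk RNA, fewer cells that express a gene and less RNA per cell cannot be told apart.

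The 250 bases before the RefSeq start of IL1A, IL1B, IL1R1 and IRAK3 are printed because these 4 genes rose with RAS and fell with METTL14 knockdown. On GRCh38.p14 the windows are chr2:112784494-112784743 and chr2:112836780-112837029 on the minus strand, and chr2:102104354-102104603 and chr12:66188964-66189213 on the plus strand. Each reads 5′ to 3′ on the gene's strand and ends at the base before the first start listed for the gene. Capitals mark matches, on either strand, to an AP-1 motif (TGANTCA), a C/EBP motif (TTGNNNAA) or an NF-κB motif (GGGRNNYYCC). Here N is any base, R is A or G, and Y is C or T, and other forms of these motifs were not searched.
IL1A: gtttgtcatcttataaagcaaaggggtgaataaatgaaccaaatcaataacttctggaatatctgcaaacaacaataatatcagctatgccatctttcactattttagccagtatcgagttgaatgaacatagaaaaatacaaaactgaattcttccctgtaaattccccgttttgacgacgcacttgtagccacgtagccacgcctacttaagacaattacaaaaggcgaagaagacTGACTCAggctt
IL1B: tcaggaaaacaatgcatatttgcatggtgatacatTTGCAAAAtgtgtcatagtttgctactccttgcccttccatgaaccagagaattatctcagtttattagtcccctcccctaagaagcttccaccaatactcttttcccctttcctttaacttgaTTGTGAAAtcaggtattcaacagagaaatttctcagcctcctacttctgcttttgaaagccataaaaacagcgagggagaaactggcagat
IL1R1: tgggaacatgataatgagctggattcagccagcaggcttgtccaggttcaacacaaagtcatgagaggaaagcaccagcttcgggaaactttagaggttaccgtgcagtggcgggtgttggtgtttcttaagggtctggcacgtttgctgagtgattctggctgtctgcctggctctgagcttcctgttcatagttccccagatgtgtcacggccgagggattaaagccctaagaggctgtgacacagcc
IRAK3: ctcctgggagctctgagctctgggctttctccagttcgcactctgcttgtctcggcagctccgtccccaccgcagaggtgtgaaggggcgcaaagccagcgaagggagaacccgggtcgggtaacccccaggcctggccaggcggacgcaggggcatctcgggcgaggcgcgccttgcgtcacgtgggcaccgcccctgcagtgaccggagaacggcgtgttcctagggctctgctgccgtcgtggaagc
The IL1A window held 1 AP-1 match, whose first base lies 12 bases before the start, and the IL1B window held 2 C/EBP matches, at 215 and 91 bases before it. The IL1R1 and IRAK3 windows held no match to any of the 3 motifs. The starts listed were 2 for IL1A, 1 for IL1B, 4 for IL1R1 and 1 for IRAK3, and only the first of each gene was searched. Which start these cells use was not determined. Of 27305 RefSeq promoter windows of the same length, 6.6% held the AP-1 motif, 31.0% the C/EBP motif and 9.6% the NF-κB motif. A match is a description of letters, and no match says only that these letters are not in this window. Promoter windows were found for 9 of the 10 genes, and none of the 9 held the NF-κB motif. AP-1 and C/EBP matches were not limited to genes that rose and fell as above. The window of IL1RL1, a gene below the expression filter, held 1 AP-1 and 3 C/EBP matches. That of IL1RN, also below the filter, held 1 AP-1 match.

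The 2 agonist genes were nearly silent in control cells and abundant after RAS. IL1A (ENSG00000115008) had 0, 0.494 and 0 CPM in control, which are 3 counts in all, and 133, 129 and 109 CPM in siControl RAS. Every siControl RAS library lay above every library of the other groups. The ratio of siControl RAS to control was 768 with a 95% interval of 263 to 3729, which, like all such intervals here, covers counting error only. IL1B (ENSG00000125538) had 0.156, 1.81 and 0.665 CPM in control and 644, 655 and 785 CPM in siControl RAS, a 783-fold rise (log2 9.61 ± 0.26 SE, adjusted p = 1.47e-13, edgeR's quasi-likelihood test with Benjamini-Hochberg adjustment over 13516 genes, as for every adjusted p below). Control replicate 2 held all 3 of the IL1A counts and 11 of the 16 IL1B counts of that group, so the low control levels differed between libraries. The SE of IL1B was taken back from the test statistic and understates the error of counting those 16 control counts.

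Both agonists were lower in knockdown RAS than in siControl RAS and still above control. IL1A stood at 29.9, 36.0 and 40.1 CPM in knockdown RAS, 3.50-fold below siControl RAS (log2 -1.81 ± 0.15 SE, adjusted p = 5.25e-11). IL1B stood at 146, 140 and 186 CPM, 4.41-fold below (log2 -2.14 ± 0.14 SE, adjusted p = 5.67e-08). Knockdown and siControl RAS libraries did not overlap for either gene. Against control, IL1A in knockdown RAS was still higher, with a ratio of 219.8 (95% interval 74.8 to 1068), and IL1B was higher by 7.47 on the log2 scale (adjusted p = 1.05e-11).

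With either form of METTL14 added back, the agonists lay a little above knockdown and far below siControl RAS. IL1B had 217, 225 and 261 CPM in the wild-type add-back and 251, 252 and 272 CPM in the R298P add-back, and no library of either overlapped the knockdown libraries. The wild-type value was 1.49-fold that of knockdown but was not called (log2 0.57, 95% interval 0.27 to 0.88, adjusted p = 0.141), whereas the R298P value was 1.64-fold and was called (log2 0.71, 95% interval 0.41 to 1.02, adjusted p = 0.0236). Both comparisons use the same knockdown libraries, and the direct difference between the add-backs was 0.14 (95% interval -0.16 to 0.44, adjusted p = 1), with overlapping libraries. The R298P call was lost when any of 5 libraries was left out in turn: without knockdown replicate 1 or 2 the adjusted p was 0.12 and 0.129, and without R298P replicate 1, 2 or 3 it was 0.0943, 0.1 and 0.125. The wild-type difference was called without knockdown replicate 3 (log2 0.71, adjusted p = 0.0184), with DESeq2 (adjusted p = 3.63e-05), with limma-voom (adjusted p = 0.00663), with the replicate number as a block (adjusted p = 7.27e-04), with no expression filter (adjusted p = 3.29e-08) and in a fit of these 2 groups alone (adjusted p = 0.0128). The fit with no filter took the spread of IL1B almost wholly from other genes, so its p is not read as stronger.

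IL1A in the add-backs also lay between knockdown and siControl RAS, at 45.5, 53.1 and 43.0 CPM with wild type and 44.1, 51.4 and 40.8 CPM with R298P. All 6 add-back libraries were above the knockdown libraries, whose highest value was 40.1 CPM. Neither difference from knockdown was called (log2 0.42, 95% interval 0.10 to 0.74, adjusted p = 0.417 for wild type, and log2 0.36, 95% interval 0.04 to 0.68, adjusted p = 0.452 for R298P). The add-backs differed from each other by -0.06 (R298P relative to wild type, 95% interval -0.37 to 0.26). Against siControl RAS, IL1A was lower in the wild-type add-back (log2 -1.39, adjusted p = 1.51e-08) and in the R298P add-back (log2 -1.45, adjusted p = 6.76e-09). IL1B was lower there too (log2 -1.57, adjusted p = 1.81e-06, and log2 -1.43, adjusted p = 5.08e-06).

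**Figure D1:**
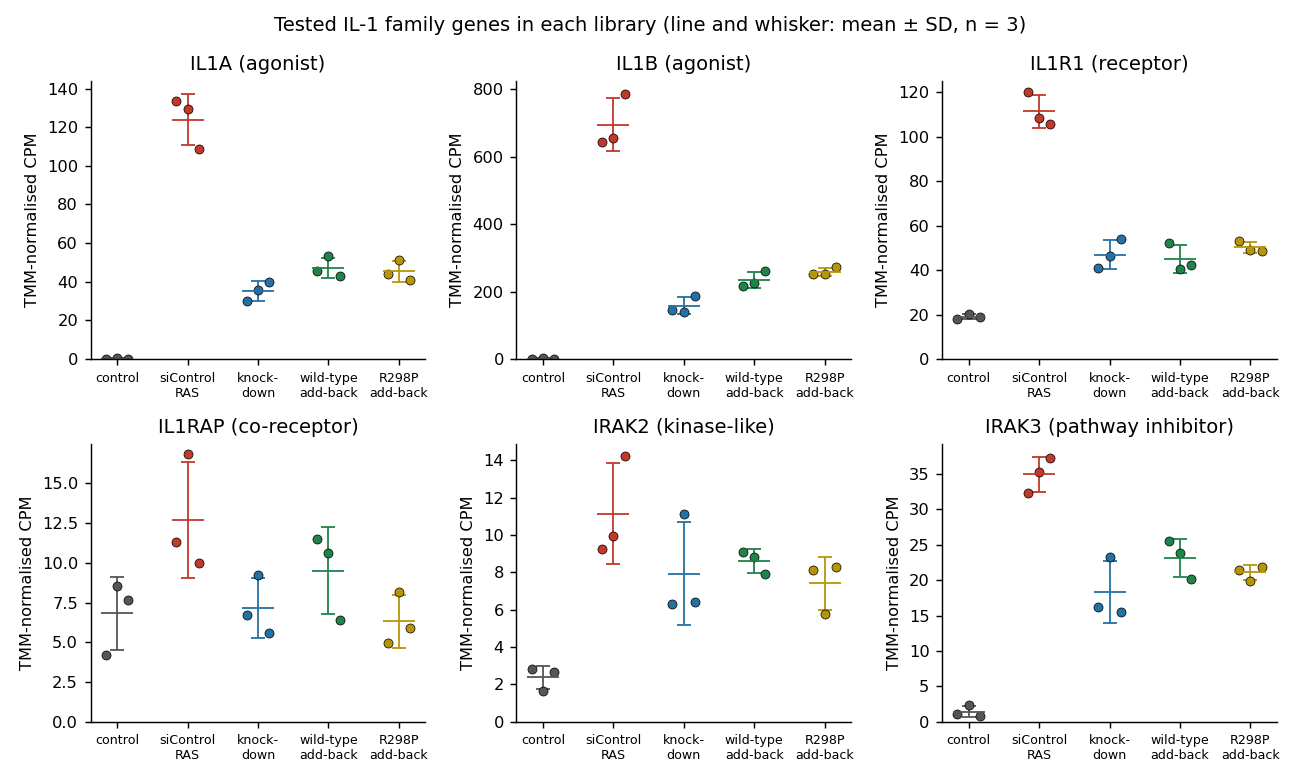
TMM-normalised CPM on the y axis for the 6 tested genes, 1 point per library, in the 5 groups on the x axis, with a line and whisker for mean ± SD (n = 3). For IL1A, IL1B, IL1R1 and IRAK3 every siControl RAS library lies above every knockdown and add-back library, and the y axes differ between genes.

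The balance of the agonists was measured as the IL1A share of all IL1A and IL1B counts in a library, which cancels library size. It is read between groups and not as a molar ratio. The share was 15.3 ± 2.70% in siControl RAS, 18.4 ± 1.82% in knockdown RAS, 16.9 ± 2.49% in the wild-type add-back and 15 ± 1.97% in the R298P add-back (SD, n = 3). The 4 comparisons of the share used a two-sided exact permutation test, where 3 libraries against 3 cannot go below p = 0.1. The p was 0.2 for knockdown against siControl RAS, 0.5 and 0.1 for the wild-type and R298P add-backs against knockdown, and 0.4 between the add-backs, and each was 0.8 after adjustment over 8 share tests. With a smallest possible p of 0.1 these tests could not have made a call, so the shares are given as a description.

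IL1RN, the antagonist, never exceeded 9 counts in a library. Its raw counts in replicates 1, 2 and 3 were 6, 3 and 9 in siControl RAS, 0, 4 and 0 in control cells, 0, 0 and 3 after knockdown, 0, 5 and 3 in the wild-type add-back, and 4, 0 and 0 in the R298P add-back. It was seen in all 3 libraries only in siControl RAS. The summed counts, scaled by depth, gave a ratio of siControl RAS to control of 4.55 (95% interval 1.5 to 18.5) and of siControl RAS to knockdown RAS of 5.74 (95% interval 1.68 to 30.4). Fitted with no expression filter, over 23149 genes, neither difference was called (adjusted p = 0.440 and 0.529). Within the pool of IL1A, IL1B and IL1RN counts the antagonist made up 0.119 ± 0.0551% in siControl RAS and 0.0724 ± 0.125% in knockdown RAS (SD, n = 3, exact permutation p = 0.6). The share was not compared with control, whose libraries held 1, 18 and 4 counts of these genes.

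IL18, a ligand related to IL-1 that is cut by inflammasome caspases, was seen almost only in control cells. It had 9, 8 and 3 counts in control (1.07 ± 0.500 CPM, SD, n = 3), 0 in all 3 libraries of siControl RAS and of both add-backs, and 0, 1 and 0 in knockdown RAS. Every control library was above every RAS library. Taking 3 counts as the floor for a group without any, IL18 was at least 6.60-fold lower in siControl RAS than in control. The fit with no filter gave an unadjusted p of 0.0237 and an adjusted p of 0.0816, so the difference was not called. Of IL33, an alarmin stored in the nucleus that acts through the IL1RL1 chain, 6 counts were seen in all: 4 in siControl RAS replicate 3, 1 in control replicate 2 and 1 in R298P replicate 3. At this depth a count of 0 over a group allows a level of up to 0.162 to 0.177 CPM, so IL33 was not measurable and its groups were not compared.

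**Figure D2:**
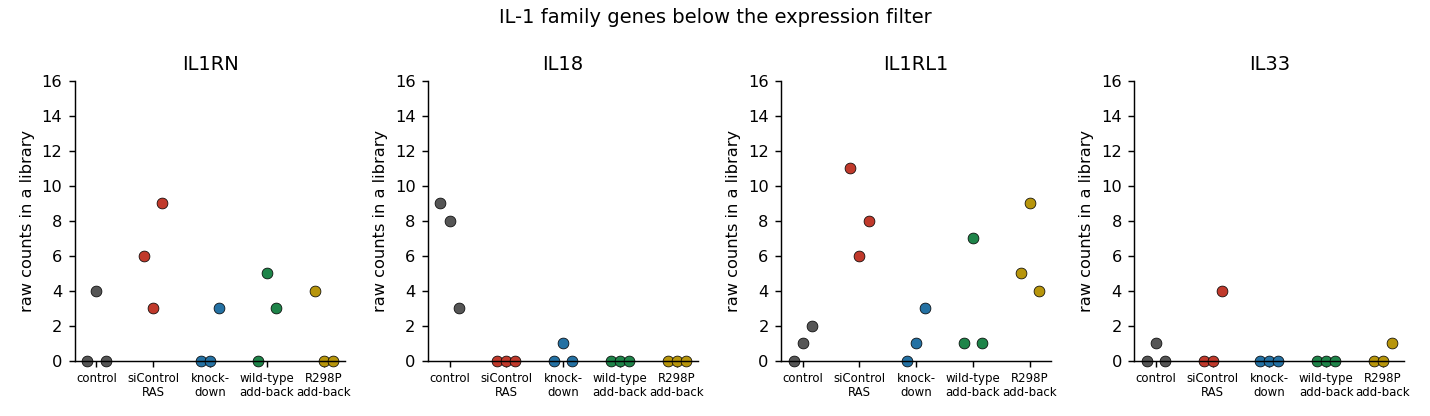
Raw counts per library on the y axis for the 4 genes below the expression filter, 1 point per library, in the 5 groups on the x axis. IL18 has 9, 8 and 3 counts in control and at most 1 in any RAS library, whereas IL1RN and IL1RL1 are highest in siControl RAS at 3 to 9 and 6 to 11 counts.

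IL1R1 (ENSG00000115594), the signalling receptor shared by both agonists, was present before RAS and rose with it. It was measured at 18, 20.4 and 18.8 CPM in control and at 120, 108 and 106 CPM in siControl RAS, with no overlap. The rise was 5.84-fold (log2 2.55 ± 0.14 SE, adjusted p = 3.43e-17). In knockdown RAS it stood at 40.8, 46.1 and 53.8 CPM, 2.37-fold below siControl RAS (log2 -1.24 ± 0.13 SE, adjusted p = 3.35e-09) and above control by 1.30 on the log2 scale (adjusted p = 2.18e-09). With METTL14 added back IL1R1 overlapped the knockdown level: it had 51.9, 40.4 and 42.5 CPM with wild type and 53.1, 48.9 and 48.7 CPM with R298P. The intervals of those differences were -0.34 to 0.20 and -0.17 to 0.36 on the log2 scale, and that between the add-backs was -0.10 to 0.43. Whether IL1B and IL1R1 differ in their response to add-back was not tested.

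IL1RAP (ENSG00000196083), the co-receptor chain, had the smallest fitted change of the tested genes after RAS. Its levels were 4.22, 8.56 and 7.65 CPM in control and 11.3, 16.9 and 9.98 CPM in siControl RAS, a 1.86-fold rise (log2 0.90 ± 0.34 SE, adjusted p = 0.0296). The groups did not overlap, but the call was lost without control replicate 1 (adjusted p = 0.162), without siControl RAS replicate 2 (adjusted p = 0.182) or when library size alone was used for scaling (adjusted p = 0.0692). Knockdown RAS had 6.71, 9.26 and 5.58 CPM, below every siControl RAS library but not called (log2 -0.82, adjusted p = 0.107), and it overlapped control. The wild-type add-back had 11.5, 10.6 and 6.39 CPM and overlapped both siControl RAS and knockdown. The R298P add-back had 4.93, 8.18 and 5.88 CPM and was called lower than siControl RAS (log2 -1.0, adjusted p = 0.0478), a call that was lost under several other settings. The direct difference between the add-backs was -0.59 (95% interval -1.29 to 0.12, adjusted p = 1).

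IL1RL1, which encodes the IL-33 receptor chain and a soluble decoy form, stayed below the filter. It had 11, 6 and 8 counts in siControl RAS, 0, 1 and 2 in control cells, 0, 1 and 3 in knockdown RAS, 1, 7 and 1 in the wild-type add-back, and 5, 9 and 4 in the R298P add-back. The siControl RAS libraries were above every control and knockdown library, with ratios of 8.42 (95% interval 2.57 to 43.6) and 5.98 (95% interval 2.06 to 23.6). The R298P add-back was also above knockdown in every library, with a ratio of 4.61 (95% interval 1.52 to 18.7), while its ratio to the wild-type add-back was 1.98 (95% interval 0.846 to 5.01). Fitted with no filter, none of these differences was called (adjusted p = 0.176 for RAS, 0.406 for knockdown and 0.831 for R298P against knockdown).

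IRAK3 (ENSG00000090376), the inhibitory family member, rose after RAS and fell in part with knockdown. It had 1.09, 2.31 and 0.832 CPM in control and 32.3, 35.2 and 37.3 CPM in siControl RAS (log2 4.61 ± 0.29 SE, 24.4-fold, adjusted p = 1.48e-15). In knockdown RAS it was 16.3, 23.3 and 15.4 CPM, with no overlap and a 1.90-fold fall (log2 -0.92 ± 0.21 SE, adjusted p = 0.00188). The add-backs, at 25.5, 23.8 and 20.1 CPM with wild type and 21.5, 19.9 and 21.9 CPM with R298P, overlapped knockdown and lay below every siControl RAS library. Against siControl RAS the R298P add-back was called lower (log2 -0.73, adjusted p = 0.0177) and the wild-type add-back was not (log2 -0.59, adjusted p = 0.0584). The difference between the add-backs was -0.13 (95% interval -0.57 to 0.30). The R298P call was lost in 4 of the fits that left out 1 library: without siControl RAS replicate 2 or 3 the adjusted p was 0.0526 and 0.0659, and without R298P replicate 1 or 2 it was 0.0526 and 0.0757.

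IRAK2 (ENSG00000134070), a family member that sustains signalling downstream of MYD88, was raised by RAS but was not called after knockdown. It had 2.81, 1.65 and 2.66 CPM in control and 9.26, 9.93 and 14.3 CPM in siControl RAS (log2 2.22 ± 0.37 SE, 4.65-fold, adjusted p = 5.34e-06). Knockdown libraries, at 6.30, 11.1 and 6.40 CPM, overlapped siControl RAS (log2 -0.48, 95% interval -1.15 to 0.19, adjusted p = 0.388). They stayed above control (log2 1.74, adjusted p = 2.82e-04). IRAK2 levels of 9.09, 8.83 and 7.89 CPM with wild type and 8.11, 5.79 and 8.31 CPM with R298P overlapped each other and knockdown. The interval of the knockdown difference includes falls as large as that of IRAK3, so the data do not show that IRAK2 and IRAK3 responded differently.

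**Figure D3:**
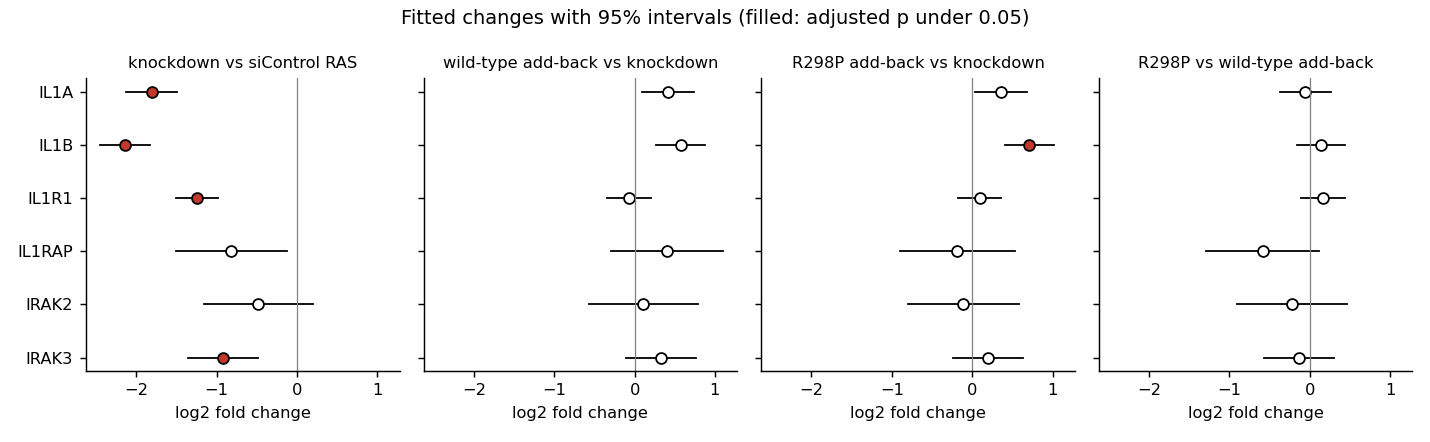
Fitted log2 fold changes (x axis) of the 6 tested genes (y axis) with 95% intervals in 4 comparisons, with filled points for an adjusted p under 0.05. The knockdown panel has 4 filled points, the R298P against knockdown panel 1 (IL1B), and the other 2 panels none.

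Counted together, the 6 tested genes were all called higher in siControl RAS than in control, and none of the 6 had overlapping groups. Of all 13516 tested genes 45.9% were called in either direction, 24% were called higher and 54.2% did not overlap. IL1A, IL1B and IRAK3 reached the filter only through RAS libraries, so their difference follows partly from being tested and this count supports nothing further. After knockdown 4 of the 6 were called lower (IL1A, IL1B, IL1R1 and IRAK3) and 0 higher, and 5 did not overlap. Among all tested genes 15.5% were called in either direction, 8.06% were called lower and 30% did not overlap. The family genes were chosen with earlier results of these data known, so this count is a description as well.

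In the wild-type add-back against knockdown 0 of the 6 were called by edgeR, although 2 had an unadjusted p under 0.05 (IL1A and IL1B) and DESeq2 and limma-voom each called 1. Of all genes 0.621% were called, 0.326% were called higher, and 13% did not overlap, as 2 of the 6 did not. In the R298P add-back against knockdown 1 of the 6 was called, and 2 did not overlap, where 1.09% of all genes were called, 0.54% were called higher and 15% did not overlap. Between the add-backs 0 were called by edgeR, by DESeq2 and by limma-voom, 0 had an unadjusted p under 0.05, and 0.0222% of all genes were called by edgeR. Against siControl RAS, which both add-backs share as the reference, 3 of the 6 were called lower with wild type, where 13% of all genes were called and 6.67% were called lower. With R298P 5 of the 6 were called lower, where 13.4% were called and 7.14% were called lower. In knockdown RAS against control 5 of the 6 were called higher, where 36% were called and 19.2% were called higher. Here too IL1A, IL1B and IRAK3 were tested only through RAS libraries, so nothing is read from that count.

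The levels of each tested gene can be ordered over the 5 groups. For IL1B the order from low to high was control, knockdown, wild-type add-back, R298P add-back and siControl RAS, and only the 2 add-backs overlapped as neighbours. For IL1A the order was control, knockdown, R298P add-back, wild-type add-back and siControl RAS, again with overlap only between the add-backs. For IL1R1 the order was control, wild-type add-back, knockdown, R298P add-back and siControl RAS, and the middle groups overlapped one another. IRAK3 ran from control through knockdown, R298P and wild type to siControl RAS, with overlap among the middle groups. IRAK2 ran from control through R298P, knockdown and wild type to siControl RAS, and only the middle groups overlapped as neighbours. For IL1RAP every group overlapped its neighbours in the order R298P, control, knockdown, wild type and siControl RAS.

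The genes most like each member over the 15 libraries were sought among tested genes with a mean of at least 10 CPM, by Pearson's correlation of log2 CPM. All libraries share 5 group means, so the values mostly describe the order of groups. IL1A was closest to IL1B (r = 0.9962), ACP3 (r = 0.9958) and CXCL1 (r = 0.9953). IL1B was closest to CXCL1 (r = 0.9964), IL1A (r = 0.9962) and CTSK (r = 0.9944). IL1R1 was closest to ACSL4 (r = 0.9897) and PTGS2 (r = 0.9889), and IRAK3 was closest to IL1A (r = 0.9928), NR2F1 (r = 0.9912) and KCNQ1OT1 (r = 0.9908). IRAK2 was closest to FOS (r = 0.9572), NINJ1 (r = 0.957) and BACH1 (r = 0.9548). The values for IL1RAP were lower, at 0.8869 for LZTFL1, 0.8802 for ATP11B and 0.8606 for ERCC4.

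On chromosome 2 most genes of the family lie in a ligand cluster and a receptor cluster, whose gene order was taken from RefSeq. In the ligand cluster the high levels stopped at IL1A and IL1B. The neighbouring ligands IL37, IL36G, IL36A and IL1F10 had 0 counts in all 15 libraries, IL36B had 6 counts in all, and the IL-36 receptor antagonist gene IL36RN had 0, 25, 5, 7 and 2 counts in control, siControl RAS, knockdown, wild-type and R298P cells. The gene on the IL1A side of the cluster, CKAP2L, which encodes a mitotic spindle protein, fell after RAS from 57.3 to 8.36 CPM (log2 -2.78, adjusted p = 1.37e-10). PSD4, on the IL1RN side, rose from 8.95 to 16.3 CPM (log2 0.85, adjusted p = 0.0134) and did not pass the test after knockdown (log2 -0.09). In the receptor cluster, of the genes beside IL1R1, IL1R2, the decoy receptor gene, had 18 counts in all libraries, IL1RL2 40, and IL18RAP 0. IL18R1, the ligand-binding chain for IL-18, rose from 0.884 to 4.81 CPM after RAS (log2 2.42, adjusted p = 0.0122). It passed the filter only through RAS libraries, so this difference follows partly from being tested. MAP4K4, beside IL1R2, changed little, from 530 to 631 CPM (log2 0.25, adjusted p = 0.00112). CKAP2L, PSD4, MAP4K4 and IL18R1 were named for their position or after their values were seen.

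**Figure D4:**
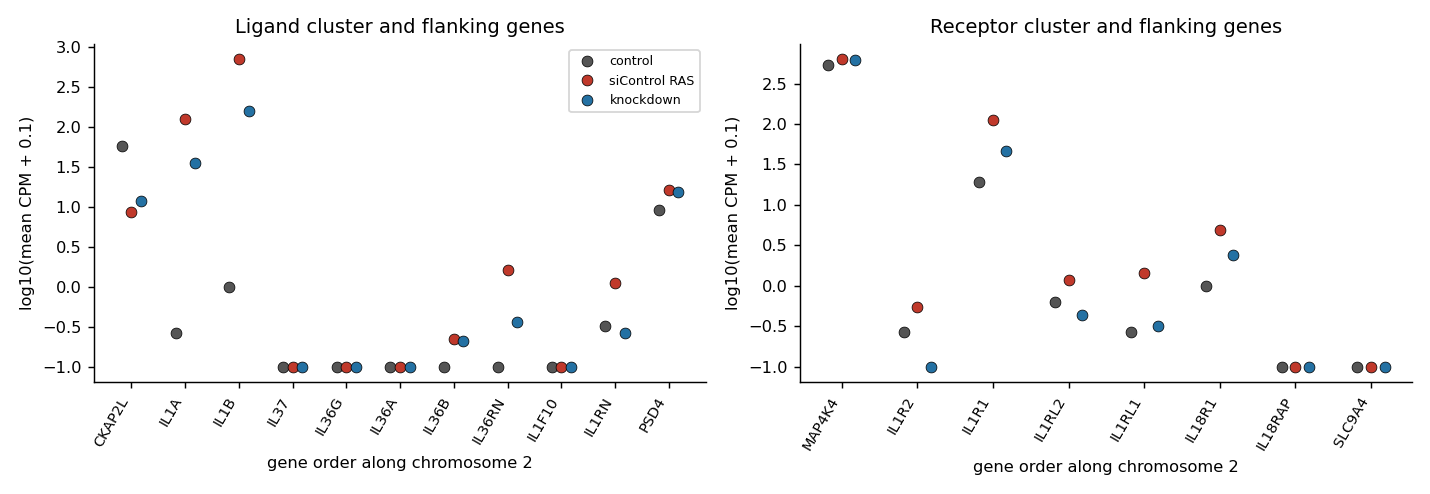
Mean TMM-normalised CPM plus 0.1 on a log10 y axis for the genes of the ligand cluster and of the receptor cluster with a flanking gene on either side, in RefSeq order along chromosome 2 on the x axis, for control, siControl RAS and knockdown RAS. IL1A and IL1B rise from under 1 CPM to 124 and 695 CPM, and the ligand genes at the bottom line have 0 counts.

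The rest of the pathway was read from 5 gene lists. Of 6 other ligands none could be tested. Of 8 other receptors and binding proteins 4 were tested, and 2 were called higher after RAS (IL1RAPL1 and IL18R1, median log2 change of the tested genes 1.29 against -0.0037 over all tested genes), where 24% of all genes were called higher and 45.9% in either direction. None of these 4 was called after knockdown (median -0.265 against -0.00283). IL18R1, with 16 counts over the control group, passed the filter only through RAS libraries, so the RAS count is a description only.

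Of 23 receptor-proximal adaptors, kinases and ubiquitin ligases, all tested, 6 were called higher and 6 lower after RAS (median -0.217). That is close to the background of 45.9% of all genes called and 24% called higher, so the count shows nothing particular to the list. The kinase gene MAP3K8 rose from 0.996 ± 1.2 to 5.69 ± 0.919 CPM (SD, n = 3, log2 2.50, adjusted p = 0.00675). PELI1 and PELI2, which encode ubiquitin ligases acting on IRAK proteins, rose by 1.66 and 1.16 on the log2 scale (adjusted p = 0.00674 and 0.0118). MAP3K8 had 0, 4 and 14 counts in control and PELI1 had 9, 9 and 15. Both passed the filter only through RAS libraries, so their difference after RAS follows partly from being tested. The core signalling genes MYD88 (17.5 to 7.94 CPM, log2 -1.14, adjusted p = 0.00266), IRAK4 (33.5 to 20.8 CPM, log2 -0.69, adjusted p = 0.00293) and IRAK1 (163 to 127 CPM, log2 -0.36, adjusted p = 0.00245) were called lower, and were named after their values were seen. After knockdown 2 of the 23 were called lower and 0 higher (median -0.0276), again close to the 8.06% of all genes called lower: PELI2, from 12.8 ± 3.48 to 5.54 ± 3.49 CPM (SD, n = 3, log2 -1.23, adjusted p = 0.0244), and TAB2, an adaptor of TAK1 (log2 -0.37, adjusted p = 0.0130). MYD88, IRAK1 and IRAK4 did not pass the test there (log2 0.61, 0.09 and 0.19).

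Of 21 processing enzyme and inflammasome genes 12 were tested. After RAS 2 were called higher and 3 lower (median 0.169), a share near the 45.9% of all genes called, so the count shows nothing particular to the list. CASP1, whose product cuts the IL-1β precursor, had 8.28, 2.96 and 5.49 CPM in control and 13.8, 14.2 and 14.4 CPM in siControl RAS (log2 1.33, adjusted p = 5.17e-04). CAPN1, a calpain subunit gene, fell from 76.6 ± 7.55 to 19.4 ± 0.968 CPM (SD, n = 3, log2 -1.98, adjusted p = 1.08e-11). NLRP1, an inflammasome sensor gene, fell from 140 ± 18.2 to 78.8 ± 6.17 CPM (log2 -0.83, adjusted p = 1.53e-08). After knockdown 2 of the 12 were called higher and 0 lower (median 0.0509), near the 15.5% of all genes called in either direction: NLRP1, at 148 ± 4.84 CPM (log2 0.91, adjusted p = 1.45e-08), and CAPN2, from 294 ± 8.15 to 417 ± 23.1 CPM (log2 0.51, adjusted p = 2.88e-06). CASP1 was not called after knockdown (11.9 ± 0.947 CPM, log2 -0.25, adjusted p = 0.664). NLRP1 and CAPN2 were thus lower after RAS and higher after knockdown, where IL1A and IL1B were higher and lower.

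Genes known to respond to IL-1 were mostly called higher after RAS and lower after knockdown. Of 30 such genes 29 were tested, and after RAS 28 were called higher and 0 lower (median 3.63), TRAF1 being the exception (log2 -0.81, adjusted p = 0.451). Of all tested genes 45.9% were called in either direction and 24% were called higher. CSF3, VCAM1, CCL20, CXCL2, IL6 and CXCL3 had 1, 1, 3, 5, 7 and 8 counts over the control group. They passed the filter only through RAS libraries and had to differ. The filter asked for 1.71 CPM in 3 libraries. LIF, with 28 counts over the control group, also met it only through RAS libraries. So did CXCL1 and CXCL8, with 5 and 10 counts in control replicate 1. The count, the median and the adjusted p of these genes after RAS are a description only. Among the largest changes CXCL1, a neutrophil-attracting chemokine, went from 1.91 ± 1.27 to 1693 ± 76.7 CPM (SD, n = 3, log2 9.79, adjusted p = 4.87e-11) and CXCL8 from 2.79 ± 1.91 to 867 ± 35.7 CPM (log2 8.28, adjusted p = 8.68e-11). CSF3, which encodes the granulocyte colony-stimulating factor, had 1 count in the control group and 160 ± 10.9 CPM in siControl RAS. After knockdown 21 were called lower, 1 was called higher and 7 were not called (median -0.946), where 15.5% of all genes were called and 8.06% were called lower. The list was chosen with earlier results of these data known, so its counts after knockdown and in the add-backs are also a description only. PTGS2, the inducible cyclooxygenase gene, fell from 957 ± 37.5 to 117 ± 14 CPM (log2 -3.04, adjusted p = 3.02e-24), CSF3 fell to 20.2 ± 1.41 CPM (log2 -2.99, adjusted p = 6.20e-17), and CCL20 fell from 11.5 ± 1.73 to 0.318 ± 0.276 CPM (log2 -5.01, adjusted p = 7.47e-06). VCAM1, an adhesion molecule gene, was the exception that rose, from 2.88 to 19.2 CPM (log2 2.71, adjusted p = 1.45e-09). TRAF1, VCAM1, CXCL2, IL6, CXCL3 and LIF were named after their values were seen.

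In the add-backs 1 response gene was called against knockdown. Against knockdown 1 of 29 was called higher and 0 lower with wild type (median 0.119, 0.621% of all genes called), and 1 higher and 0 lower with R298P (median 0.102, 1.09% of all genes called). In both cases that gene was CSF3, at 33.7 ± 6.0 CPM with wild type (log2 0.75, adjusted p = 0.00975) and 35.4 ± 5.27 CPM with R298P (log2 0.81, adjusted p = 0.00268). The 2 comparisons share the knockdown libraries. CXCL1 and CXCL8 also lay above knockdown in every library of both add-backs but were not called. CXCL1 changed by log2 0.77 with wild type (adjusted p = 0.0721) and 0.66 with R298P (adjusted p = 0.103). CXCL8 changed by log2 0.73 (adjusted p = 0.114) and 0.77 (adjusted p = 0.0551). PTGS2 with wild type overlapped knockdown (log2 0.13). Against siControl RAS 19 were called lower and 1 higher with wild type, where 6.67% of all genes were called lower. With R298P 22 were called lower and 1 higher, where 7.14% of all genes were called lower.

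**Figure D5:**
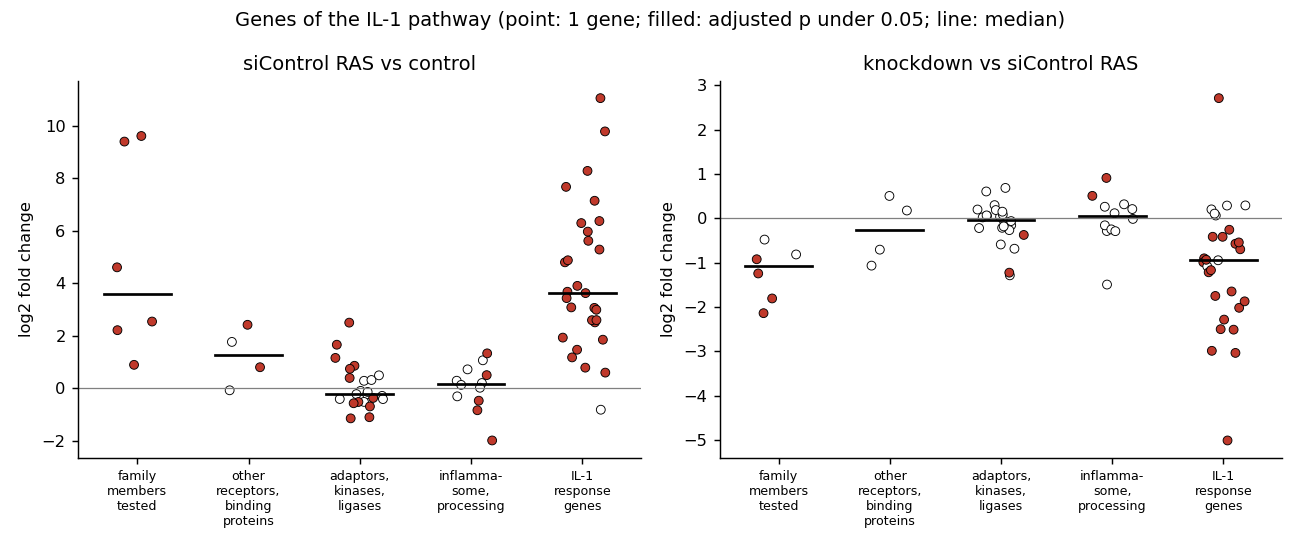
Fitted log2 fold change (y axis) of each tested gene of the family and of 4 pathway lists (x axis), after RAS on the left and after METTL14 knockdown on the right, with filled points for an adjusted p under 0.05 and a line at each list's median. The response genes have medians of 3.63 and -0.946, the adaptors -0.217 and -0.0276, and fitted values of genes near 0 counts in control, such as IL1A and CSF3, depend on the prior count.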

How the data were processed

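QuantSeq 3′ libraries of 15 IMR90 samples were analysed. The authors deposited 1 table of raw counts, with Ensembl genes as rows. Bowtie2, RSEM 1.2.12 and hg19 are named without roles, per the submitters' processing notes. Every deposited count is whole, although RSEM can give fractions. The sources used here give neither the annotation nor the use of strand, so overlapping and antisense genes cannot be told apart. A 3′ tag count does not grow with transcript length. The protocols' siRNA and lentivirus are followed here where the genotype labels say knockout and knock-in.

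edgeR 4.0.16 under R 4.3.3 fitted all libraries together by group, after its own expression filter and TMM scaling, and tested contrasts with its robust quasi-likelihood test, two-sided. Of 57736 genes 13516 were tested. Calls needed an adjusted p (Benjamini-Hochberg) below 0.05. The fit was tested on simulated data. Levels are TMM-normalised CPM computed here, and intervals of count ratios are exact at 95%. The SE of a log2 change is its absolute value divided by the square root of the test's F statistic. Intervals on the log2 scale are built from that SE. It can fall below counting error where a group has few counts. Symbols were matched by Ensembl ID for 52301 genes (90.6%). Promoters and gene order come from RefSeq on GRCh38.p14, and no coordinates were taken from the count table.

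Over 30 pairs of libraries with the same replicate number, deviations from the group means correlated at -0.0541 to 0.0681, so replicates were treated as unpaired. Named genes were the 10 family genes, METTL14, up to 3 called genes per pathway list with the largest change after RAS or knockdown among those reaching 5 CPM in a group, and the 3 genes most like each tested member, 1 of which is not reported here. The genes and lists were chosen with earlier results of these data known. Alternatives were RLE and upper-quartile factors, library size alone, no filter, a filter of 1 CPM in 3 libraries, DESeq2 1.42.0, limma-voom (limma 3.58.1), fits of only the groups compared, a replicate block, and each library left out.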

Additional observations from a re-analysis of the deposited data

How the results depend on the processing

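The numbers of family genes called after RAS (5 to 6), for knockdown against siControl RAS (4) and against control (5), for wild type against siControl RAS (3 to 4) and between the add-backs (0) stayed at or within 1 of their values in every alternative run. For wild type against knockdown the number was 0 and became 1 (IL1B) with no filter, DESeq2, limma-voom, only the groups compared or the replicate block, and ranged from 0 to 1 with 1 library left out. For R298P against knockdown it was 1, and 0 to 1 with 1 library left out. For R298P against siControl RAS it was 5, and 3 to 5 with 1 library left out: it was 3 without siControl RAS replicate 2 or R298P replicate 1. IL1B had fewer prior degrees of freedom than most genes, 3.642 against a median of 23.41, and 17.16 against 25.32 with the replicate block. With no filter IL1B had 766.8, and the value was infinite for the median gene and for IL1RN, IL33, IL18 and IL1RL1. The p-values of that fit therefore rest almost wholly on a spread shared between genes. The replicate block changed no other number of family genes called. For 8 of 15 libraries, the replicate number with the highest mean correlation over the other groups was their own.

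Of 720 alternative values of 48 fold changes, 679 kept direction and side of the threshold, 21 lost the threshold, 9 passed it and 11 changed sign. Values that changed sign did so with 1 library left out, and none was called. Their ranges in log2 were -0.18 to 0.038 for IL1R1 and -0.029 to 0.44 for IRAK2 in wild type against knockdown, -0.42 to 0.047 for IL1RAP and -0.25 to 0.22 for IRAK2 in R298P against knockdown, -0.16 to 0.040 for IL1A between the add-backs, and -0.17 to 0.28 for IL1RAP in knockdown against control. The IL1RN share difference of R298P and knockdown (-0.000713 percentage points) ranged from -0.0724 to 0.0716. The IL1RAP difference of R298P and siControl RAS was not called with upper-quartile factors (adjusted p = 0.0562), library size alone (0.0687), no filter (0.0509), the stricter filter (0.0501), limma-voom (0.0574) or without siControl RAS replicate 1 or 2 or R298P replicate 1 or 3 (0.0729, 0.262, 0.192 and 0.143). The IRAK3 difference of wild type and siControl RAS was called with DESeq2 (adjusted p = 0.0376), limma-voom (0.0168) and only the groups compared (0.0249).

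Scaling by library size alone moved the median of all genes by -0.152 after RAS, with 2648 of 6519 called genes higher against 3241 of 6201. For knockdown against siControl RAS it gave 1442 of 2254 higher against 1010 of 2100, for wild type against siControl RAS 1134 of 1894 against 854 of 1755, and for R298P against siControl RAS 1234 of 1942 against 848 of 1813. For knockdown against control it gave 2277 of 4981 against 2600 of 4862. DESeq2 called 225 genes for R298P against knockdown against 148 in edgeR, and 126 against 84 for wild type. Between the add-backs 3 genes were called, 14 with no filter, 12 with DESeq2 and 5 with limma-voom or only the groups compared. Genes at a few counts, here IL1RN, IL33, IL18 and IL1RL1, are limited by depth.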
